A study of Mus musculus with 18 samples.

Results

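The 10 genes described here make and use serine, glycine, threonine and methionine or supply related amino acids: Phgdh, Psat1, Psph, Shmt1, Shmt2, Gldc, Tdh, Ahcy, Asns and Slc7a3. They were matched by symbol and Ensembl identifier in 3 tables of RNA levels, one for each stage of mouse embryo. The table of E2.5 held 8 of them among 7082 genes, that of E3.75 held 10 among 6648 and that of E4.5 held 9 among 6545. Ahcy and Slc7a3 at E2.5 and Ahcy at E4.5 were not analysed here. Polyadenylated RNA was measured in CD1 embryos of genotype Oct4 -/- (called null) and Oct4 +/+ (called wild type), collected before the blastocyst (E2.5), as blastocysts (E3.75) and as late blastocysts (E4.5). Each genotype had 3 libraries at each stage, 18 in all. The question, from the title of the series, is which genes need Oct4 in vivo. Oct4 (gene Pou5f1) is a transcription factor of pluripotent cells. All embryos were flushed from oviducts or uteri and had no treatment. Which part of the gene was deleted, how, and whether Oct4 from the oocyte was present: none of this is given in the sources used here. The series text counts embryos but does not say whether a library is 1 embryo or a pool, so p-values measure only the spread between these libraries.

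Serine is made from a glycolytic intermediate by Phgdh, Psat1 and Psph in turn, and the Psat1 step also releases alpha-ketoglutarate, a substrate of enzymes that remove methyl groups from DNA and histones. Serine and glycine are interconverted by Shmt1 in the cytosol and Shmt2 in mitochondria, and Shmt2 and Gldc release one-carbon units that folate carries into nucleotide and methionine synthesis. Mouse embryonic stem cells are known for a dependence on Tdh, which opens the route from threonine to glycine, and Ahcy clears the product left when S-adenosylmethionine has given up its methyl group.

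Levels are CPM, reads of a gene per 1000000 reads of its library, and each stage was scaled over the genes of its own table. The recovered depth ran from 364936 to 1922432 reads per library, with group medians in null and wild type libraries of 1917754 and 916720 at E2.5, 1375610 and 576078 at E3.75, and 1314657 and 543033 at E4.5. Pou5f1 was lower in each null library than in any wild type library of its stage, at 931 to 1011 CPM in null and 1723 to 2093 CPM in wild type libraries at E2.5, 221 to 286 and 380 to 600 CPM at E3.75, and 95.1 to 143 and 183 to 274 CPM at E4.5. Reads lie near the 3′ end, and the deleted part is not known here, so these levels are no full check of genotype. Library 3 (C in wild type at E4.5) of every group could nearly be written as a weighted mix of libraries 1 and 2. Around that mix its values varied 1 to 1.25 times as much as sampling alone gives, and libraries 1 and 2 varied 1.12 to 2.78 times as much around mixes made in the same way. If library 3 of a group is not independent of the others, standard errors (SE) and p-values are too small, so results are also given without it (the first 2 libraries). In whole embryos, fewer cells of a type and less RNA per cell cannot be told apart.

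Among the 10 genes the clearest difference was that of Psat1, which was 1.59 times as high in null as in wild type embryos at E3.75. At that stage Gldc was also higher and Shmt2, Ahcy and Slc7a3 were lower in null embryos, so that 5 of 10 passed (2 higher, 3 lower; limma on log2(CPM + 1), Benjamini-Hochberg adjustment over all genes of the stage, threshold 0.05). The same test called 8.20% of the 6648 genes of the table, 3.60% higher and 4.60% lower. The 10 genes were chosen with earlier results of these data known, so their count is no test of an excess over that share. On whole reads recovered from the CPM, edgeR's quasi-likelihood test called 4 of the 10, all but Shmt2, and 8.30% of genes, while DESeq2 called Psat1 and Gldc and 6.65% of the genes for which it gave an adjusted p. DESeq2 gave no adjusted p for Shmt2 and Slc7a3, so neither could pass there. With the first 2 libraries Psat1 alone passed, and that fit called 2.33% of genes. Libraries did not overlap between genotypes for 6 of the 10 genes, 3 higher and 3 lower in null, where 27.2% of all genes had such a gap (11.4% higher, 15.7% lower). Slc7a3, counted as lower by both measures, was kept at this stage only with its wild type libraries, which favours a lower level in null. The median difference over the 10 genes was -0.26 log2, against -0.04 over all genes.

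At E2.5 limma called 0 of 8 members and 0.593% of the 7082 genes. The unadjusted p was under 0.05 for 3 of 8 members and 20.4% of all genes, and edgeR and DESeq2 also called 0 members, against 2.53% of genes in edgeR and 4.27% of the genes for which DESeq2 gave an adjusted p. Shmt2 had no adjusted p in DESeq2. The groups did not overlap for Psat1 and Tdh, higher in null, and Asns, lower in null, while 27.8% of all genes had such a gap (13.6% higher, 14.1% lower). At E4.5 limma called 0 of 9 members and 0 of 6545 genes (0%), with an unadjusted p under 0.05 for 3 of 9 members and 15.0% of genes. edgeR called 1 member, Asns, and 0.642% of genes, and DESeq2 also called Asns alone, with 4.29% of the genes for which it gave an adjusted p. Among the members DESeq2 gave an adjusted p only for Psat1, Shmt1, Gldc and Asns. Tdh, Asns and Slc7a3 did not overlap between genotypes at E4.5, all lower in null, where 22.2% of all genes did not overlap (12.2% higher, 9.99% lower). Slc7a3 was here too kept only with its wild type libraries.

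**Figure D1:**
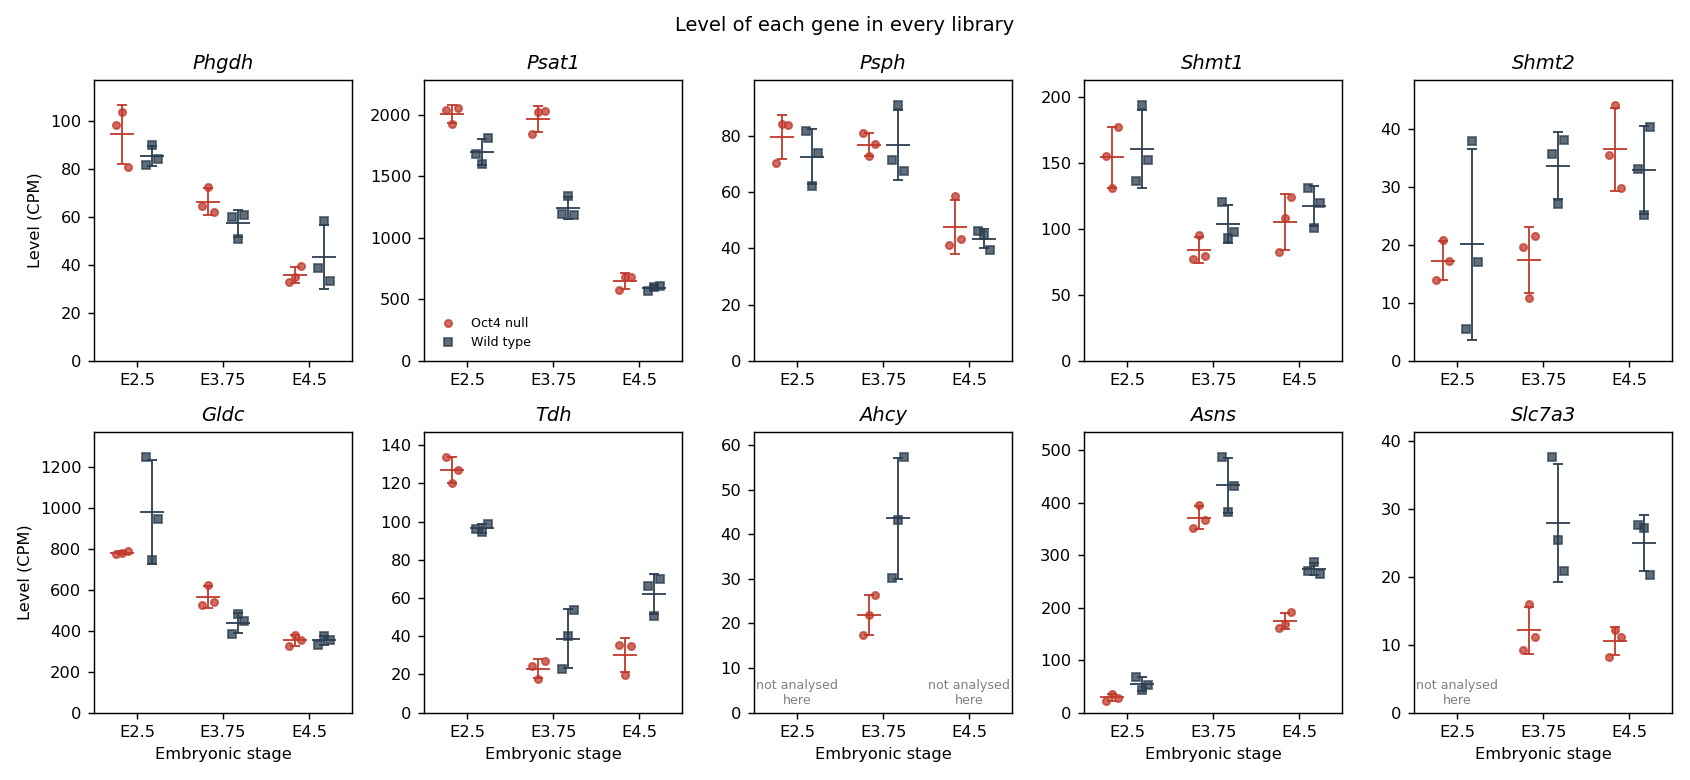
Level of each of the 10 genes in every library (CPM, linear axes from 0) by embryonic stage, with Oct4 null libraries as red circles and wild type libraries as dark squares; long bars are means and error bars SD (n = 3). The null libraries of Psat1 at E3.75 lie between 1845 and 2032 CPM, above the wild type libraries at 1186 to 1341 CPM, and those of Asns and Tdh at E4.5 lie below all wild type libraries.

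Serine synthesis begins with Phgdh (ENSMUSG00000053398), phosphoglycerate dehydrogenase, which oxidises 3-phosphoglycerate. Its null libraries held 98.4, 104 and 80.8 CPM at E2.5, against 81.8, 89.9 and 84.3 CPM in wild type. At E3.75 they held 64.7, 72.7 and 61.9 CPM, against 60.2, 50.9 and 60.8 CPM, and there the lowest null library lay above the highest wild type library by less than the spread within either group. The difference was 0.21 log2 (SE 0.18, adjusted p = 0.526) at E3.75, and adjusted p was 0.654 at E2.5 and 0.678 at E4.5. The last 1000 bases of the Phgdh transcript have near copies in 8 other annotated genes, at up to 98.6% identity, so reads of Phgdh may have been split between copies.

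Psat1 (ENSMUSG00000024640), phosphoserine aminotransferase, takes the amino group of glutamate to form phosphoserine. At E2.5 it stood at 2038, 1923 and 2053 CPM in null libraries and at 1683, 1600 and 1808 CPM in wild type libraries. All null libraries lay above all wild type libraries there, by a difference of 0.24 log2 (SE 0.07) that did not pass the threshold (adjusted p = 0.0938). At E3.75 the null libraries held 1845, 2021 and 2032 CPM and the wild type libraries 1192, 1341 and 1186 CPM. The groups were thus far apart, with means of 1966 ± 105 CPM in null and 1240 ± 88.1 CPM in wild type (SD, n = 3). The difference of 0.67 log2 (SE 0.07, adjusted p = 4.16e-06) is a ratio of 1.59 (95% interval 1.43 to 1.76), and it passed under all 17 other settings tried, with adjusted p between 2.41e-11 and 0.000275. At E4.5 the groups overlapped, with 573, 685 and 684 CPM in null libraries against 571, 601 and 610.1 CPM in wild type libraries (difference 0.12 log2, adjusted p = 0.591).

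Psph (ENSMUSG00000029446), the phosphatase that releases serine, showed no difference past the threshold at any stage. Its means in null and wild type libraries were 79.6 ± 7.87 and 72.6 ± 9.85 CPM at E2.5, 76.9 ± 4.12 and 76.7 ± 12.4 CPM at E3.75, and 47.6 ± 9.54 and 43.4 ± 3.43 CPM at E4.5 (SD, n = 3). The groups overlapped each time, and the 95% intervals of the ratio ran from 0.845 to 1.43 at E2.5, 0.792 to 1.29 at E3.75 and 0.778 to 1.51 at E4.5. A change of a size like that of Psat1 at E3.75 lies outside these intervals. Of the 3 enzymes of the route, then, Psat1 alone passed at E3.75, where limma called 8.20% of all genes. A count over so few genes says nothing about the route as a whole.

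The promoter of Psat1 is shown because Psat1 gave the smallest p of any member and because it is one of the genes listed as targets of the amino acid shortage response. It is RefSeq's window of 250 bases before to 50 after a gene start that matched the start of the GENCODE transcript, in build GRCm38.p6, minus strand, chr19:15925010-15925309.
Psat1: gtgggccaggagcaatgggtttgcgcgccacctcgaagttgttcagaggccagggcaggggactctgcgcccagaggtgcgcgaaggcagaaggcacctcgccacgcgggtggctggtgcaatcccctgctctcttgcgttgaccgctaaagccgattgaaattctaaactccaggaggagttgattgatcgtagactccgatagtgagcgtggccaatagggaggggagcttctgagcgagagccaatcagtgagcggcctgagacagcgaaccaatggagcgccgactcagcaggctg
The window holds neither of the motifs searched on both strands, the C/EBP-ATF composite element TGATGNAA (bound by Atf4 with C/EBP partners) and the octamer ATGCAAAT (bound by POU factors), so none of its letters is in capitals. Of all 32851 RefSeq promoter windows of this length, 3.97% held the first and 1.74% the second. RefSeq windows matched 8 of the 10 genes (9 windows), and 0 of the 8 held the octamer.

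Shmt1 (ENSMUSG00000020534), the cytosolic serine hydroxymethyltransferase, and Shmt2 (ENSMUSG00000025403), the mitochondrial one, differed in what the test found at E3.75. Shmt2 stood at 19.7, 10.9 and 21.6 CPM in null libraries and at 35.7, 27.2 and 38.2 CPM in wild type libraries. No null library reached the lowest wild type library, and Shmt2 fell by 0.96 log2 (SE 0.30, adjusted p = 0.048). This call lies at the threshold and rests on 15 to 31 reads per null library and 19 to 32 per wild type library. It was lost with TMM factors (adjusted p = 0.0591), with DESeq2 size factors (0.058), in edgeR (0.0625) and with the first 2 libraries (0.208). At E2.5 wild type libraries of Shmt2 ranged from 5.45 to 38 CPM around null libraries at 14 to 20.8 CPM, and at E4.5 both genotypes lay between 25.2 and 44.1 CPM. The adjusted p was 0.913 and 0.806 at those stages.

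Shmt1 stood at 77.5, 95.2 and 79.3 CPM in null libraries at E3.75, against 120.3, 93.4 and 97.2 CPM in wild type. The highest null library lay above the lowest wild type library, and the difference of -0.30 log2 (SE 0.16) did not pass (adjusted p = 0.28). At E2.5 and E4.5 the adjusted p was 0.88 and 0.683. Whether Shmt1 and Shmt2 differ from each other in their response was not tested. Annotated genes on the opposite strand reach into the last 1000 bases of both, Smcr8 at Shmt1 and Ndufa4l2 at Shmt2, and no source used here says that reads were counted by strand, so reads of each pair may not be separable.

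Gldc (ENSMUSG00000024827) is the glycine decarboxylase of the glycine cleavage system, which hands a one-carbon unit to folate in mitochondria. At E2.5 its null libraries held 775, 780 and 787 CPM within a narrow band, against 1245, 743 and 945 CPM in wild type libraries. The wild type spread covered the null values, and the difference of -0.29 log2 (SE 0.15) did not pass (adjusted p = 0.28). Without wild type library 2, the lowest of its group, that difference was -0.47 log2 and passed (adjusted p = 0.0139), in a fit that called 10.9% of all genes. At E3.75 the order was the other way round, with 524, 623 and 541 CPM in null libraries against 384, 482 and 444 CPM in wild type libraries. The groups did not overlap, and Gldc was higher by 0.37 log2 in null (SE 0.10, adjusted p = 0.0258). That call held in edgeR (0.00726) and DESeq2 (0.0245) and was lost with the first 2 libraries (0.142), in one fit over all 18 libraries (0.11), and without null library 2 (0.121) or 3 (0.0622) or wild type library 1 (0.0765) or 3 (0.0775). At E4.5 the means were 352 ± 26.8 CPM in null and 353 ± 21.4 CPM in wild type (SD, n = 3; adjusted p = 0.981).

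Tdh (ENSMUSG00000021953), the mitochondrial threonine dehydrogenase, starts the route from threonine to glycine. At E2.5 it stood at 134, 120.2 and 127 CPM in null libraries and at 96, 94.5 and 98.9 CPM in wild type libraries. Every null library was higher, by 0.39 log2 (SE 0.13), which did not pass over all genes (adjusted p = 0.138). At E4.5 null libraries held 35.6, 19.8 and 35 CPM and wild type libraries 66.3, 50.4 and 69.8 CPM. Every null library was now lower, with a ratio of 0.482 (95% interval 0.320 to 0.725) and a difference of -1.05 log2 (SE 0.27) that again did not pass (adjusted p = 0.161). It passed without null library 1 (0.0471), the shallowest library of the series, and in one fit over all 18 libraries (0.0252), but not in edgeR (0.0547) or with the first 2 libraries (0.832). At E3.75 the groups overlapped, with 24.3, 17.5 and 27.1 CPM in null libraries against 22.6, 39.9 and 53.8 CPM in wild type libraries (difference -0.67 log2, adjusted p = 0.169). Without wild type library 1 the difference at E3.75 was -1.01 log2 (adjusted p = 0.0222). Within tables scaled separately, both genotypes had their highest Tdh level at E2.5. The last 1000 bases of Tdh share 97% identity over 640 bases with Gm13929, for which no value was analysed here.

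Ahcy (ENSMUSG00000027597), S-adenosylhomocysteine hydrolase of the methionine cycle, could be followed at E3.75 only. Null libraries held 17.3, 21.8 and 26.4 CPM and wild type libraries 30.1, 43.3 and 57.3 CPM. The groups were separate but the range within wild type was wider than the gap between the group means. Ahcy fell by 0.94 log2 (SE 0.27, adjusted p = 0.0354), on 15 to 38 reads per null library and 16 to 51 per wild type library. It did not pass in DESeq2 (0.0754), with the first 2 libraries (0.277), without null library 1 (0.148) or 2 (0.0647), or without wild type library 2 (0.0689) or 3 (0.195). Gm4737, whose transcript matches the last 1000 bases of Ahcy at 99.7% over 581 bases, stood at 15.1 ± 4.32 CPM in null and 18.7 ± 4.92 CPM in wild type libraries at E3.75 (SD, n = 3; adjusted p = 0.661), and reads of both genes cannot be assigned with certainty.

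Asns (ENSMUSG00000029752), asparagine synthetase, makes asparagine from aspartate with glutamine as the nitrogen donor and is a textbook target of Atf4 under amino acid shortage. At E2.5 null libraries held 22.8, 35.9 and 28.2 CPM and wild type libraries 67.6, 42.6 and 53.5 CPM. No null library reached the lowest wild type library, and the ratio was 0.539 (95% interval 0.368 to 0.790), a difference of -0.89 log2 (SE 0.25) that did not pass over all genes (adjusted p = 0.0924). It passed without wild type library 2 (0.0228) and in one fit over all 18 libraries (0.00237), not with the first 2 libraries (0.685). At E3.75, in a table scaled separately, Asns stood higher in both genotypes, with 353, 396 and 367 CPM in null libraries against 487, 382 and 432 CPM in wild type libraries. These groups overlapped, and the difference was -0.22 log2 (SE 0.10, adjusted p = 0.213).

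At E4.5 Asns stood at 162, 169 and 191 CPM in null libraries and at 271, 287 and 264 CPM in wild type libraries. The gap between the groups was wider than the spread within either, with means of 174 ± 15.5 CPM in null and 274 ± 11.9 CPM in wild type (SD, n = 3) and a ratio of 0.636 (95% interval 0.525 to 0.769). The difference of -0.65 log2 (SE 0.125) did not pass in limma over all genes (adjusted p = 0.125), which called none at this stage, nor with the first 2 libraries (0.832). It passed with edgeR (0.0264), with DESeq2 (0.00655), in one fit over all 18 libraries (0.0249) and without null library 1 (0.0396). Asns was lower in null embryos on average at all 3 stages and passed the stage fits of limma at none. It was separate from wild type at the first and the last. Of all genes, 14.1% at E2.5 and 9.99% at E4.5 had such a gap with null lower.

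The promoter of Asns is shown because Asns was the one member whose RefSeq window held a searched motif. The window lies on the minus strand at chr6:7693160-7693459 (GRCm38.p6, RefSeq), and capitals mark the C/EBP-ATF composite element, which starts at position -23 from the RefSeq gene start. The coordinate of that start minus that of the GENCODE transcript start is -45, which on the minus strand places it downstream. By the GENCODE start the element thus lies inside the transcript.
Asns: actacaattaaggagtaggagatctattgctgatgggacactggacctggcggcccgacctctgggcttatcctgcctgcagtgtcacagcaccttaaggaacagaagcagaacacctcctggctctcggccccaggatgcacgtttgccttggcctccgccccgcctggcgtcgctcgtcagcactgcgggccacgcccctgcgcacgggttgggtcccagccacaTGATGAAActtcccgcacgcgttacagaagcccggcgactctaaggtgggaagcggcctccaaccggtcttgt
This element was found in 1 of the 8 matched genes. The match is a description of letters in these windows and does not show binding.

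Slc7a3 (ENSMUSG00000031297) is a carrier of cationic amino acids such as arginine and lysine. At E3.75 it stood at 9.25, 16 and 11.1 CPM in null libraries and at 37.6, 25.5 and 20.8 CPM in wild type libraries. The groups did not overlap, and Slc7a3 fell by 1.13 log2 (SE 0.33, adjusted p = 0.0378), a ratio of 0.456 (95% interval 0.283 to 0.733). At E4.5 it stood at 8.22, 12.2 and 11.2 CPM in null libraries and at 27.6, 27.2 and 20.2 CPM in wild type libraries. The groups were again separate and the ratio was 0.442 (0.268 to 0.730), but the adjusted p was 0.171. Slc7a3 had few reads, 8 to 22 per null library at E3.75 and 3 to 16 at E4.5, against 12 to 30 and 14 to 22 per wild type library. Genes kept at these stages reach at least 10.4 and 10.42 CPM in 3 of 6 libraries. Null libraries at 9.25 and 8.22 CPM lie below that, so the null group alone would not have kept Slc7a3, while the wild type group would. That filter favours a lower level in null, so the lower values of Slc7a3 are described and are no independent support. The call at E3.75 held in edgeR (0.0341) and was lost with the first 2 libraries (0.104), with thinned reads (0.0639), and without null library 1 (0.144) or 3 (0.112) or wild type library 1 (0.122) or 2 (0.0559).

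**Figure D2:**
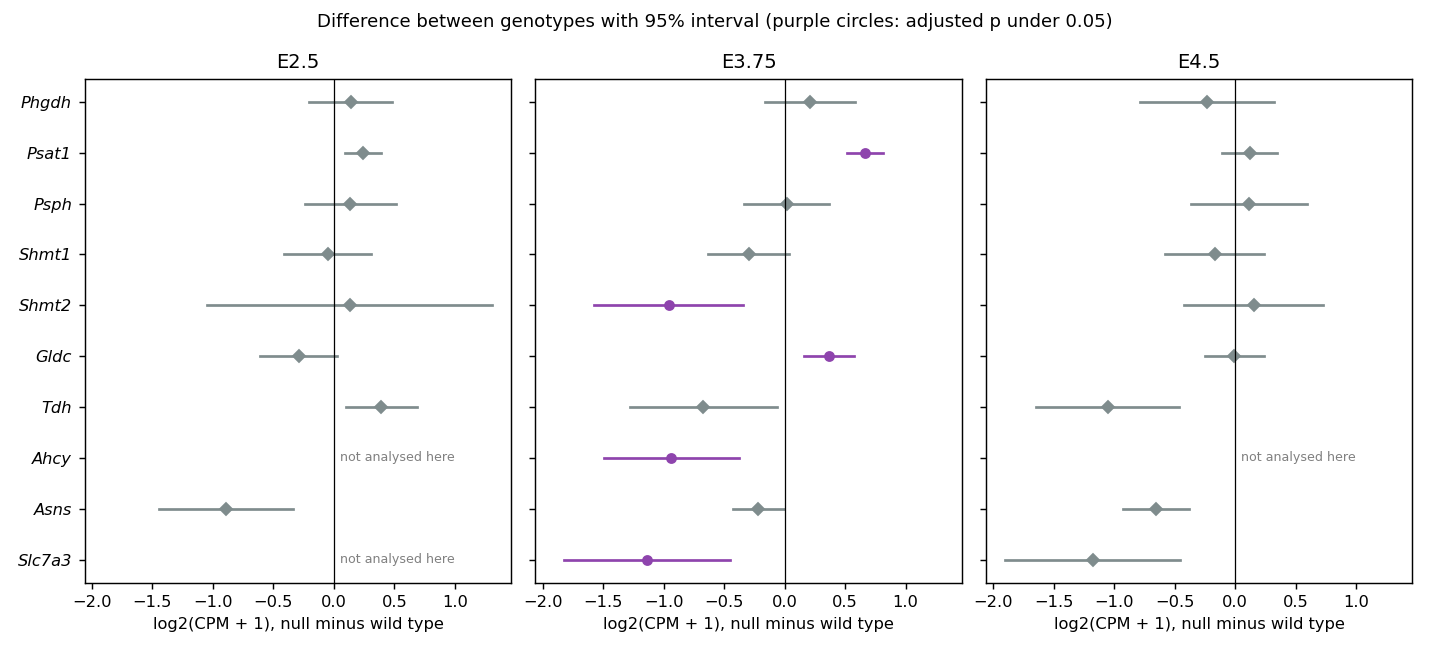
Difference in log2(CPM + 1), null minus wild type, for each of the 10 genes at each stage, with points for the estimate and lines for its 95% interval (limma, n = 3 libraries per genotype). Purple circles mark an adjusted p under 0.05, which occurs for Psat1, Shmt2, Gldc, Ahcy and Slc7a3 at E3.75, and grey diamonds mark the others. The interval of Asns lies below 0 at E2.5, E3.75 (by little, -0.429 to -0.002) and E4.5. That of Tdh lies above 0 at E2.5 and below 0 at E3.75 and E4.5.

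The members that were higher and lower at E3.75 also differed in level. Psat1 and Gldc, higher in null, had means of 1966 and 563 CPM in null and 1240 and 437 CPM in wild type libraries, while Shmt2, Ahcy and Slc7a3, lower in null, had means of 12.1 to 21.9 CPM in null and 28 to 43.6 CPM in wild type libraries. Reads come mostly from the last part of each transcript and no length was applied, so these levels are not a measure of how transcripts of different genes compare. At E3.75, 1 read was worth 0.696 to 1.16 CPM in null and 0.849 to 1.88 CPM in wild type libraries.

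**Figure D3:**
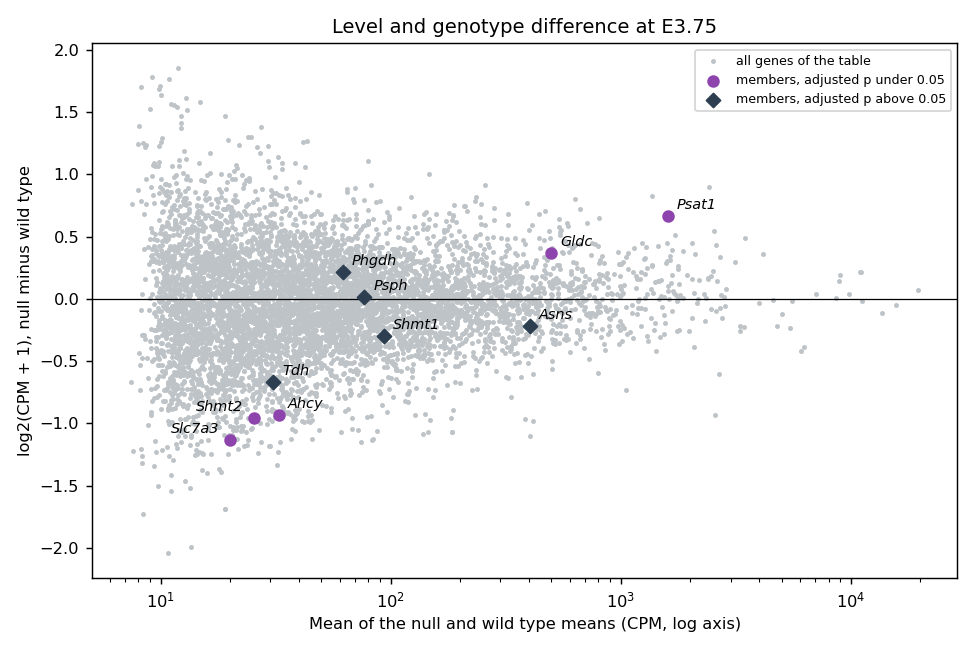
Difference in log2(CPM + 1) between null and wild type at E3.75 (y axis) against the mean of both genotype means (x axis, CPM, log scale) for all 6648 genes of the table (grey), with the 5 members past the threshold as purple circles and the other 5 as dark diamonds. Psat1 (0.67 log2) and Gldc (0.37 log2) lie above 0 at the right, and Slc7a3 (-1.13 log2), Shmt2 (-0.96 log2) and Ahcy (-0.94 log2) lie below 0 at the left, where the genes of the table spread most widely.

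Tests of whether the genotype effect differed between stages found none past the threshold among the 8 members present in all 3 tables (limma, 5430 genes, all 18 libraries, no other tool run). The same fits called 1.12% of genes for E3.75 minus E2.5, 0.0921% for E4.5 minus E3.75 and 1.01% for E4.5 minus E2.5. The unadjusted p was under 0.05 for 4 of 8 members and 13.9% of genes in the first of these, for 1 member and 14.3% in the second, and for 1 member and 17.1% in the third. The effect on Psat1 was 0.67 log2 at E3.75 and 0.12 log2 at E4.5, a difference of -0.55 (SE 0.12, adjusted p = 0.0555). It was 0.42 log2 greater at E3.75 than at E2.5 (SE 0.12, adjusted p = 0.0775). For Tdh the effect at E4.5 was lower than at E2.5, with a difference of -1.44 log2 (95% interval -2.21 to -0.68, adjusted p = 0.0519). The Tdh effect at E3.75 was also lower than at E2.5, with a difference of -1.06 log2 (95% interval -1.83 to -0.29, adjusted p = 0.174). For Gldc the effect was -0.29 log2 at E2.5 and 0.37 log2 at E3.75, which differed by 0.66 (SE 0.18, adjusted p = 0.0764). For Asns the negative effect at E2.5 was greater than at E3.75 by 0.68 log2 (SE 0.23, adjusted p = 0.156). The contrasts share the libraries of a stage and are not independent of each other. The differences of Psat1 for E4.5 minus E3.75 and of Tdh for E4.5 minus E2.5 passed with TMM factors (0.0196 and 0.045), DESeq2 size factors (0.0114 and 0.0439) and a pseudocount of 5 (0.0447 and 0.0426). With the first 2 libraries neither passed (0.899 and 0.654), nor did Psat1 (0.986), Gldc (0.876) or Asns (0.986) for E3.75 minus E2.5.

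Of the 6 lists of pathway genes none had a member past the threshold in limma at E2.5 or E4.5, stages at which limma called 0.593% and 0% of all genes, so nothing is read from this about the lists. At E3.75 limma called 3.60% of all genes higher and 4.60% lower, the shares to set beside the counts of each list. Of 5 measured genes for glycine cleavage and threonine breakdown, Gldc was higher and Dld was lower in null. Dld, the dehydrogenase subunit that the glycine cleavage system shares with other mitochondrial complexes, stood at 79.3 ± 6.38 CPM in null and 113.5 ± 10.8 CPM in wild type libraries (SD, n = 3; -0.51 log2, adjusted p = 0.0424). Of 12 measured folate enzymes and carriers, 2 were higher and 1, Shmt2, was lower. The higher ones bring folate into the cell. Slc46a1, the proton-coupled folate transporter, stood at 642 ± 20.5 CPM in null and 431 ± 40.4 CPM in wild type libraries (0.58 log2, adjusted p = 0.000401). Folr1, a folate receptor, stood at 1307 ± 43.5 CPM in null and 985 ± 95.5 CPM in wild type libraries (0.41 log2, adjusted p = 0.00183). The median difference of the folate list was -0.07 log2, against -0.04 log2 over all genes.

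Of 17 measured genes of the methionine cycle, transsulfuration and polyamine synthesis, Ahcy alone passed at E3.75. Of 13 measured amino acid carriers, Slc7a3 alone passed, with 4 of the 13 above 0 and 9 below 0 and a median of -0.28 log2. Among 12 measured enzymes of glutamine, glutamate, aspartate, proline and arginine, 1 was higher and 4 were lower, with a median of -0.37 log2. Ass1, the argininosuccinate synthase, stood at 202 ± 18 CPM in null and 139 ± 9.69 CPM in wild type libraries (0.53 log2, adjusted p = 0.0113). Glud1, the glutamate dehydrogenase, stood at 132 ± 7.47 CPM in null and 219.8 ± 65.5 CPM in wild type libraries (-0.69 log2, adjusted p = 0.00911). Oat, which links ornithine to proline, and Pycrl, a proline synthesis enzyme, also fell, by 0.64 and 0.58 log2 (adjusted p = 0.03 and 0.0365).

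The list for the amino acid shortage response, genes of the Atf4 arm, had 11 measured members at E3.75, of which Psat1 was higher and 2 were lower. The lower ones were Shmt2 and Nupr1, a stress-induced nuclear protein at 23.6 ± 3.48 CPM in null and 45.6 ± 8.6 CPM in wild type libraries (SD, n = 3; -0.91 log2, adjusted p = 0.0224, limma). The list's median was -0.14 log2, with 5 members above 0 and 6 below. Asns, its textbook target, did not pass at this stage. Members of the list therefore did not share a direction.

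Some markers of cell types also differed between genotypes at E3.75, where limma called 3.60% of all genes higher and 4.60% lower. At E3.75, 9 of 11 epiblast and pluripotency markers were measured, of which 2 were higher and 6 lower in null, with summed levels of 2381 to 2472 CPM in null and 2415 to 2585 CPM in wild type libraries. These sums include Pou5f1 itself, with means of 258 CPM in null and 509 CPM in wild type libraries. Nanog was among the higher ones, with means of 349 CPM in null and 212 CPM in wild type libraries (0.73 log2, adjusted p = 0.000566, limma). The list median was -0.86 log2, with 2 genes above 0 and 7 below. Of 9 of 11 primitive endoderm markers 2 were higher and 4 lower, with sums of 1478 to 1617 and 1285 to 1444 CPM. The list median was -0.98 log2, with 4 genes above 0 and 5 below. Dab2, higher in null, had means of 986 CPM in null and 629.5 CPM in wild type libraries, a large part of each sum. Lamb1, lower in null, had means of 99.4 and 198 CPM. The higher sum in null thus does not mean that most of these markers were higher. Of 10 of 10 trophectoderm markers 1 was higher (Tead4, 0.56 log2) and 1 lower (Tspan8, -0.42 log2), with sums of 7429 to 8382 and 8651 to 9796 CPM. Of 14 markers of maternal blood, oviduct, uterus and cumulus cells 3 were measured, with sums of 175.9 to 474 and 114.7 to 176.6 CPM. All 3 are haemoglobin genes, of which Hba-a1 and Hbb-bs were higher, so the sums say nothing about the other maternal cells. Of 10 oocyte markers 3 were measured, Khdc3, Tcl1 and Padi6, with sums of 1784 to 1925 and 2328 to 2566 CPM. Khdc3 and Tcl1 were lower. None of Zp1, Zp2, Zp3, Gdf9 and Bmp15 was measured, so these sums rest on a small part of the list. Of 9 mitochondrially encoded genes 6 were measured and 1, mt-Co1, was lower, with sums of 35890 to 38760 and 36780 to 42340 CPM. No measured marker was at 0 in any library, and the part of these differences in the results for the 10 genes was not tested.

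At E2.5, where limma called 0.593% of all genes, the only marker calls were a lower Pou5f1 and 1 higher trophectoderm gene, Hand1. Epiblast sums were 2623 to 2738 CPM in null and 3689 to 4017 CPM in wild type libraries, and trophectoderm sums 3309 to 3729 and 2948 to 3352 CPM. The epiblast list includes Pou5f1 at each stage, here with means of 968 CPM in null and 1875 CPM in wild type libraries. At E4.5, where Asns, Tdh and Slc7a3 stood apart, no marker passed in limma, which called no gene at all. The null libraries were all below the wild type libraries for 5 of 9 epiblast, 4 of 8 primitive endoderm, 1 of 10 trophectoderm, 2 of 2 oocyte and 4 of 6 mitochondrially encoded genes, and all above them for 2 primitive endoderm and 3 trophectoderm genes. Of all genes at E4.5, 9.99% had such a gap with null lower and 12.2% with null higher. Sums in null and wild type libraries were there 1048 to 1091 and 1415 to 1490 CPM for the epiblast list, 1241 to 1407 and 1435 to 1532 CPM for primitive endoderm, 14700 to 16910 and 15860 to 17580 CPM for trophectoderm, 158 to 1099 and 155 to 275 CPM for maternal cells, 997 to 1134 and 1169 to 1184 CPM for the oocyte list, and 52220 to 68430 and 65720 to 82180 CPM for the mitochondrial one. The part of these differences in the results for Asns, Tdh and Slc7a3 was not tested.

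The 5 calls at E3.75 differed in how far they depended on the processing, as the plot of adjusted p by setting shows. Psat1 passed in each of the 17 other settings, Gldc in 11 of 17, Ahcy in 10 of 16, Slc7a3 in 8 of 15 and Shmt2 in 5 of 16, where a setting without a value for the gene is not counted. With the first 2 libraries of each group the 4 other genes kept their directions but not their calls.

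**Figure D4:**
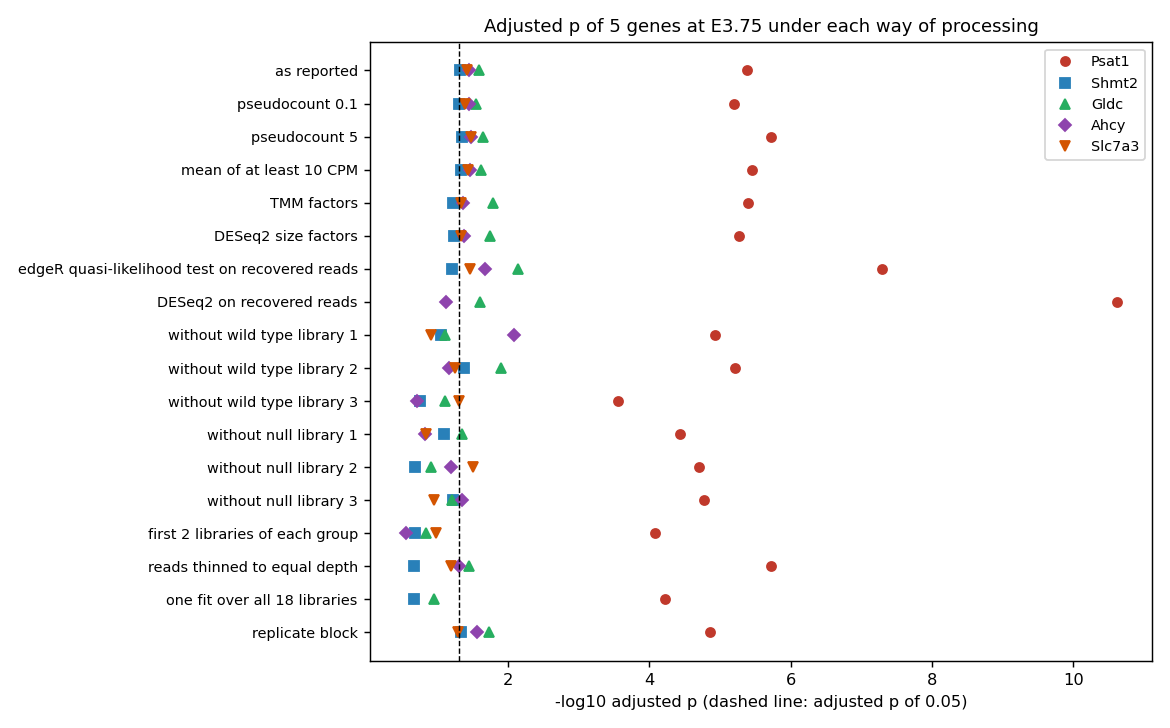
The -log10 adjusted p at E3.75 of the 5 genes that passed (x axis; further right is smaller p) under each way of processing (rows), with the dashed line at an adjusted p of 0.05. Psat1 lies far right of the line in every row, while Gldc, Ahcy, Slc7a3 and Shmt2 lie close to the line on either side; a missing point means that the fit gave no adjusted p for that gene.

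Over the 18 libraries, after the mean of each stage was subtracted, the genes whose pattern was most like that of Psat1 were Nudt4 (Pearson r = 0.92), Stip1 (r = 0.90) and Pttg1ip (r = 0.88), among 5332 genes present in all tables with a mean of at least 10 CPM at each stage. Nudt4 is a diphosphoinositol polyphosphate phosphatase and Stip1 a cochaperone of Hsp70 and Hsp90. For Asns they were Cdh1 (r = 0.92), the epithelial cadherin, Ndufa8 (r = 0.90), a subunit of respiratory complex I, and Nek6 (r = 0.87), a mitotic kinase. Among the members themselves the values of r lay between -0.83, for Shmt2 with Gldc, and 0.45, for Psat1 with Gldc. These values describe libraries that share a genotype contrast, a depth difference and a library 3 close to a mix of the others, and no p is given.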

How the data were processed

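RNA was extracted with a column kit, primed with oligo(dT) and amplified next to the poly(A) tail, which places most reads near transcript 3′ ends, per the labels' protocols. The authors deposited CPM, 1 table per stage, each column summing to 1000000 over its own genes; edgeR and mm9 are named in the submitters' processing notes. No source used here gives the aligner, counter or annotation. Genes of a table reach at least 10.28, 10.4 and 10.42 CPM in 3 of 6 libraries at the 3 stages, so low genes had been left out. Symbols were matched by identifier for 6968 of 7082, 6546 of 6648 and 6443 of 6545 genes. The 3 wild type columns of E4.5 share 1 name and are here lettered A, B and C as they stand.

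CPM divided by the CPM of 1 read came out whole, within 0.01 reads, for 121650 of 121650 values (100%). limma 3.58.1 (R 4.3.3) was fitted with a variance trend to log2(CPM + 1), with a pseudocount of 1, two-sided, per stage, and over all 18 libraries for differences between stages. This scale understates changes of low genes. edgeR 4.0.16 (quasi-likelihood test with TMM factors) and DESeq2 1.42.0 took the reads so recovered. Other alternatives were pseudocounts of 0.1 and 5, a mean of at least 10 CPM, TMM and DESeq2 size factors, each library left out, the first 2 libraries, reads thinned once to the shallowest library of a stage, one fit over all libraries, and a replicate block. Intervals cover the spread between libraries; reads carry no stated molecular identifiers. Fits were tested on simulated reads.

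The members and lists (6 of pathway genes, 6 of markers) were chosen with earlier results of these data known. Named are all 10 members, up to 4 passing genes of a pathway list and up to 2 of a marker list per stage by smallest p. Near copies of the last 1000 bases of each transcript were sought with blastn 2.17.0 in GENCODE transcripts (at least 95% identity over 100 bases).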

Additional observations from a re-analysis of the deposited data

Results flagged for a closer look

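The estimated effect of the null genotype on Tdh had opposite signs at the first and last stages: every null library lay above every wild type library at E2.5 and below every one at E4.5. Such gaps, in either direction, were seen in 27.8% of all genes at E2.5 and 22.2% at E4.5. Tdh was flagged because of these gaps on opposite sides, so they and the difference below, from the same values, are no independent support. How many genes had gaps on opposite sides at both stages was not counted. Tdh passed at neither stage, with an effect of 0.39 log2 at E2.5 (adjusted p = 0.138) and -1.05 log2 at E4.5 (adjusted p = 0.161, limma). Their difference was -1.44 log2 (95% interval -2.21 to -0.68, limma over 5430 genes and 18 libraries, adjusted p = 0.0519). The adjusted p lay between 0.0266 and 0.132 with any 1 library left out, was 0.0426 with a pseudocount of 5, 0.045 with TMM factors and 0.0439 with DESeq2 size factors, and was 0.654 with the first 2 libraries of each group. At E3.75 the groups overlapped, with an effect of -0.67 log2 (95% interval -1.28 to -0.06, adjusted p = 0.169, limma). Tdh rested on 182 to 243 reads per null library and 82 to 122 per wild type library at E2.5, and on 13 to 47 and 26 to 76 at E4.5. Epiblast marker sums, which include Pou5f1 itself, were lower in null libraries at both stages. Pou5f1 had means of 968 CPM in null and 1875 CPM in wild type libraries at E2.5, and 111.5 and 230.6 CPM at E4.5. The part of these sums in the Tdh difference was not tested.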

How the results depend on the processing

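The count of members past the threshold at E2.5 (0) was 1 in one fit over all 18 libraries (Asns) and 0 to 2 with 1 library left out, the 2 being Gldc and Asns, both lower, without wild type library 2. Of all genes the one fit called 2.56% and the fits with 1 library left out 0.0141% to 10.9%, against 0.593%. At E3.75 the count of 5 was 1 with the first 2 libraries and 1 in one fit over all libraries (which lacks Ahcy and Slc7a3). It was 2 in DESeq2 (no adjusted p for Shmt2 and Slc7a3), 3 with thinned reads and 2 to 3 with any 1 library left out. In that order these fits called 2.33%, 3.92%, 6.65%, 5.43% and 3.14% to 9.81% of the genes they tested, against 8.20%. At E4.5 the count of 0 was 1 in edgeR (Asns), 1 in DESeq2 (Asns) and 2 in one fit over all libraries (Asns and Tdh). It was 0 to 2 with 1 library left out, the 2 being Tdh and Asns without null library 1. In that order these fits called 0.642%, 4.29%, 4.07% and 0% to 1.83% of the genes they tested, against 0%. Members with an adjusted p in DESeq2 there were Psat1, Shmt1, Gldc and Asns only. Of members whose effect differed between stages (0), 2 passed with a pseudocount of 5, 2 with TMM factors and 2 with DESeq2 size factors, and 0 to 4 with 1 library left out, the 4 without wild type library 2 of E2.5.

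Of 439 single values for null against wild type, 384 kept direction and side of the threshold, 30 lost the call, 10 gained one and 15 changed sign, all 15 in results that did not pass. Of 288 for differences between stages, 268 kept both and 20 gained a call. Changed signs were Shmt2 at E2.5 in edgeR (-0.162), Phgdh at E2.5 with thinned reads (-0.009), and Psph at E3.75 in edgeR (-0.001) and with the first 2 libraries (-0.07). With 1 library left out the range of log2 differences crossed 0 for Shmt1 (-0.163 to 0.088) and Shmt2 (-0.55 to 0.747) at E2.5, Psph at E3.75 (-0.067 to 0.142), and Psph (-0.038 to 0.212), Shmt2 (-0.022 to 0.309) and Gldc (-0.058 to 0.052) at E4.5. Phgdh at E4.5 was -1.19 log2 with thinned reads, against -0.23 (adjusted p = 0.173 and 0.678). The causes were not tested.

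Replicate numbers did not pair the libraries: same-numbered null and wild type libraries had deviations correlated at 0.037, 0.121 and -0.003 at E2.5 and -0.007, -0.031 and 0.01 at E3.75, and not every library correlated best with its own number. The fit with a replicate block called 30 genes at E2.5, against 42, and 438 at E3.75, against 545, with 0 and 4 members. Slc7a3 was then at adjusted p = 0.0513. No block was fitted at E4.5, where wild type columns carry no number. TMM factors moved the share of higher against lower genes by under 10 percentage points at each stage. Low read numbers limit Shmt2, Ahcy, Slc7a3, Tdh at E3.75 and Phgdh at E4.5, with 3 reads of Slc7a3 in the library of E4.5 that held fewest.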
